A study of Mus musculus with 43 samples.

Results

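The lipoprotein receptors described here are 6 genes of brain endothelium, Lrp8, Vldlr, Lrp1, Lrp10, Scarb1 and Sorl1. They were chosen by symbol among 54532 genes in the deposited count table, with 1 row each, and 6 of 6 passed the filter on low counts that left 29120 genes to test. Endothelial cells (EC) were sorted as CD31+, CD45- and CD11b- cells from the dissected cortex or hippocampus of 2-month-old mice, and their RNA was sequenced in 43 libraries. The wild-derived strains were CAST/EiJ (6 libraries) and WSB/EiJ (6 libraries). The long-inbred strains were 129S1/SvImJ (9 libraries), A/J (5), C57BL/6J (6), DBA/2J (5) and NOD/ShiLtJ (6). Female mice gave 16 libraries and male mice 27, and cortex gave 21 and hippocampus 22. 129S1/SvImJ gave 6 of the female and 3 of the male libraries, so strain and sex are partly mixed. The titles also hold the word high or low, which the sources used here do not define: 15 of 16 female libraries were titled high, against 14 of 27 male libraries. All mice were inbred, no treatment is labelled, and the source of each library is labelled by group and not by animal. Cortex and hippocampus libraries of a strain may therefore come from the same animals, so that the 5 to 9 libraries of a strain may stand for fewer mice. They were treated as independent, and the p-values describe the spread between libraries, which may in part be technical.

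Lipoprotein receptors sit at the cell surface, bind particles or proteins that carry lipid, and move them into or across the cell. Lrp8 (also called ApoER2) and Vldlr are the receptors of reelin and bind apolipoprotein E. Lrp1 is a large scavenging and signalling receptor for apolipoprotein E, alpha-2-macroglobulin and many proteases, known at the blood-brain barrier for amyloid-beta clearance and abundant also in astrocytes, pericytes and neurons. Lrp10 is a smaller family member of the Golgi and endosomes. Scarb1 is the receptor of high-density lipoprotein. Sorl1 combines lipoprotein receptor and sorting receptor domains and steers the amyloid precursor protein through endosomes.

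In the mm10 build and GENCODE release M21, Lrp8 (ENSMUSG00000028613) lies on the forward strand of chromosome 4 from 107802261 to 107876840. Vldlr (ENSMUSG00000024924) lies on the forward strand of chromosome 19 from 27216484 to 27254231. Lrp1 (ENSMUSG00000040249) lies on the reverse strand of chromosome 10 from 127538161 to 127621148. These 3 are the members that passed a test between strains. Lrp10 lies on chromosome 14 from 54464137 to 54471497, Scarb1 on chromosome 5 from 125277087 to 125341094, and Sorl1 on chromosome 9 from 41964720 to 42124297. Antisense or other overlapping genes are annotated at 5 of the 6 loci. Those that were tested had a mean of at most 1.71 CPM, and the strand setting of the counting is not given in the sources used here.

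The 250 bases before the annotated start of Lrp8, Vldlr and Lrp1 are shown because these are the members with a called strain difference. They were read from RefSeq's table for GRCm38.p6, which held 5 of the 6 members. They are reference sequence and not that of the other strains. Capitals mark a GC box (GGGCGG on either strand, here read as its reverse complement).

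Lrp8: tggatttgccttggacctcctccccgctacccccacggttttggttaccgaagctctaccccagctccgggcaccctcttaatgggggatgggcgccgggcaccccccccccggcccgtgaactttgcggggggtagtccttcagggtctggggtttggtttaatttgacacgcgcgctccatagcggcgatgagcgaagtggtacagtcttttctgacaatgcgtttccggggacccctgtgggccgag
Vldlr: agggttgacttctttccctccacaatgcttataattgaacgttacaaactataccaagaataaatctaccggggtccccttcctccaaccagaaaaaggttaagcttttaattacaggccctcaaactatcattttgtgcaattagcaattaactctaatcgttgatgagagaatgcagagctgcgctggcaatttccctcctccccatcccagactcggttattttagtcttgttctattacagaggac
Lrp1: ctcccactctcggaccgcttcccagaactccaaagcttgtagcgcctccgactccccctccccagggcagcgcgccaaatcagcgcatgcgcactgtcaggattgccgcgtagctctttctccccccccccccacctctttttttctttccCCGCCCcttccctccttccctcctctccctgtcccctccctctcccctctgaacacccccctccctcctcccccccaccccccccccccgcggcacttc

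The Lrp8 stretch is chr4:107802635-107802884 on the forward strand, and its RefSeq start lies 624 bases from the GENCODE gene start. The Vldlr stretch is chr19:27216234-27216483 on the forward strand. The Lrp1 stretch is chr10:127621149-127621398, read on the reverse strand. Vldlr had the lowest GC content of these windows, 41.6%, against 62.4% for Lrp8, 67.2% for Lrp1 and a median of 52.4% over 32817 windows of the same length. A GC box was found in the windows of Lrp1 and Sorl1 and in 32.7% of all windows. A CCAAT box (33.8% of all windows), a TATA box (TATAAA, 12.4%) and the core of a sterol regulatory element (TCACNCCAC, 1.05%) were found in none of the 5 members' windows, on either strand.

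Sequencing depth differed among libraries, with totals of 1626534 to 49372356 counts. The rRNA-like share of counts was at most 12.1% in female libraries, was higher in every male library and reached 29.3% there, so it cannot be told apart from sex. The 10 endothelial markers were detected in every strain, with a summed level of 9620 to 18686 CPM per library. Astrocyte markers summed to 1099 to 19671 CPM, pericyte markers to 2161 to 9756 CPM, neuronal markers to 50.1 to 935 CPM and microglial markers to 5.71 to 149 CPM. In these bulk libraries, fewer cells of a type and less RNA per cell cannot be told apart.

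Per length of its transcripts, Lrp8 was the member with the highest level. Lrp8 had a mean of 490 ± 208 CPM (SD, n = 43), Lrp1 of 382 ± 181 CPM and Scarb1 of 157 ± 50.8 CPM (SD, n = 43). Lrp10 had a mean of 96.7 ± 45.7 CPM, Sorl1 of 38.8 ± 21.7 CPM and Vldlr of 6.82 ± 8.15 CPM (SD, n = 43). The genes differ in length, so their order was read from the level per exonic kilobase. On that scale Lrp8 had a mean of 46.6 CPM per kb, and it ranked first of the 6 in 37 of 43 libraries. Lrp10 (21.7 CPM per kb), Lrp1 (21.6 CPM per kb) and Scarb1 (18.5 CPM per kb) followed close together and changed places between libraries. Sorl1 had 3.43 CPM per kb and was the fifth in 42 libraries, and Vldlr had 0.678 CPM per kb and was last in 43 of 43.

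**Figure D1:**
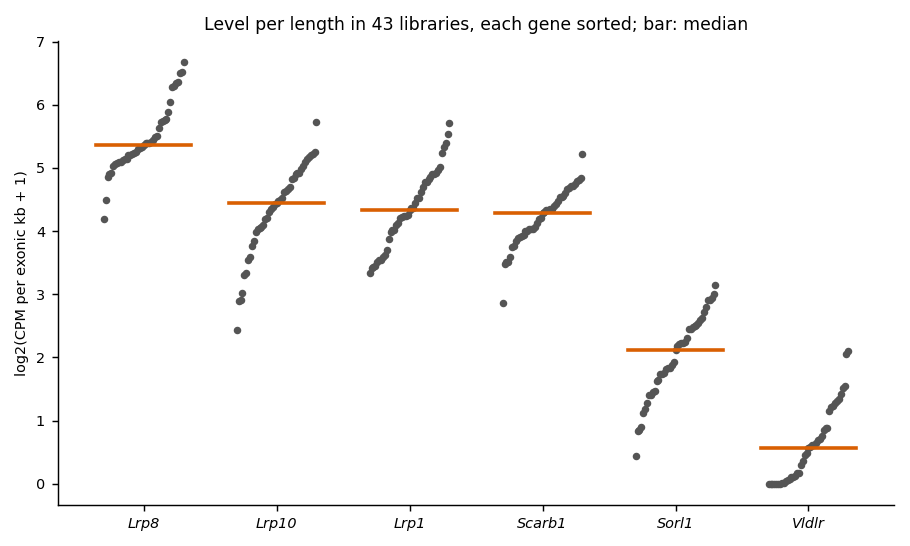
Level per length of the 6 members on a log2(CPM per exonic kb + 1) axis, with 1 point per library (43 libraries, sorted within each gene) and a bar at the median. Lrp8 lies highest, Lrp10, Lrp1 and Scarb1 lie together, and Sorl1 and Vldlr lie lowest.

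The first comparison asked which receptors differ among the 7 strains. By edgeR's quasi-likelihood test over all strains, 2 of 6 members were called (adjusted p under 0.05), where 2.68% of all genes tested were called. These were Lrp8 (adjusted p = 1.27e-05) and Lrp1 (adjusted p = 0.0388). Within cortex (0.0581) and within hippocampus (0.108) Lrp8 missed the threshold of this test over all strains. Lrp1 lost its call by DESeq2 (adjusted p = 0.0514) and without the library A/J replicate 1 (0.0535). Vldlr did not pass that test (adjusted p = 0.0891, edgeR's quasi-likelihood test), nor did Lrp10 (0.567), Sorl1 (0.817) or Scarb1 (0.823). DESeq2 also called 2 members, Lrp8 and, in place of Lrp1, Vldlr (adjusted p = 0.00959). In contrasts of each strain with the mean of the other 6, 3 of 42 member tests were called, against 8 of 42 at an unadjusted p under 0.05. At that unadjusted p, between 2230 (DBA/2J) and 5737 (129S1/SvImJ) of all 29120 genes passed in a strain's contrast. The shares of all genes called were 1.35% for CAST/EiJ, 2.41% for WSB/EiJ, 1.46% for 129S1/SvImJ, 0.254% for A/J, 0.529% for C57BL/6J, 0.192% for DBA/2J and 0.185% for NOD/ShiLtJ.

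Lrp8, the reelin receptor, was highest in CAST/EiJ. The 6 CAST/EiJ libraries lay between 806 and 1068 CPM, with a median of 897 CPM. WSB/EiJ followed with 332 to 821 CPM and a median of 488 CPM. Both female WSB/EiJ libraries (683 and 821 CPM) were above the 4 male ones (332 to 567 CPM). Every CAST/EiJ library was above the highest long-inbred library (614 CPM, A/J), and 1 WSB/EiJ library reached into the CAST/EiJ range.

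The long-inbred strains had Lrp8 medians of 434 CPM in NOD/ShiLtJ (349 to 556), 391 CPM in 129S1/SvImJ (303 to 550) and 392 CPM in C57BL/6J (226 to 449). The 5 DBA/2J libraries had 343, 382, 384, 405 and 546 CPM, and the 5 A/J libraries had 182, 361, 379, 414 and 614 CPM. In the order of mean levels, only the step of 385 CPM from CAST/EiJ (911 ± 97.6 CPM, SD, n = 6) to WSB/EiJ (SD 199 CPM, n = 6) was larger than the larger of the neighbours' SDs. From WSB/EiJ down to C57BL/6J (364 ± 89.0 CPM, SD, n = 6) no neighbours differed beyond their spread.

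The fitted difference of Lrp8 between CAST/EiJ and the mean of the other strains was 1.12 on the log2 scale (SE 0.15), a fold of 2.17 (adjusted p = 2.05e-07, edgeR's quasi-likelihood test). Over all genes the median of this contrast was -0.12. Within cortex the value was 1.22 and within hippocampus 1.04, both called, and within male libraries it was 1.17. With astrocyte, pericyte and neuronal marker means as covariates it was 1.12 and was called. No other strain was called for Lrp8, the nearest being C57BL/6J at -0.43 (SE 0.17, adjusted p = 0.231, edgeR's quasi-likelihood test).

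Vldlr, which shares reelin and apolipoprotein E with Lrp8, was nearly absent from C57BL/6J libraries. The 6 libraries of that strain had 2 counts in the female cortex, 2 in the female hippocampus and 0 in each of the 4 male libraries. Pooled, these 4 counts gave 0.0834 CPM (95% exact Poisson interval 0.0227 to 0.213), against 10.2 CPM from 5435 counts in the other 6 strains. The pooled level of the other strains was thus 122-fold higher (95% interval 47.6 to 448), an interval that covers counting error only. Of those 5435 counts, 948, 569, 1003 and 1458 came from 4 female 129S1/SvImJ libraries, so these libraries weigh heavily in the ratio. The ratio without all of them was not computed. Without C57BL/6J replicate 2, the female cortex library that held 2 of the 4 counts, the pooled level was 0.0457 CPM and the ratio 222 (95% interval 61.5 to 1836). Without any other single library the ratio lay between 97.6 and 134.

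Outside C57BL/6J, Vldlr varied widely within strains. In 129S1/SvImJ the 9 libraries ran from 0 to 32.9 CPM with a median of 1.31 CPM, and the 4 highest, from 16.8 CPM upward, all came from female mice. A/J libraries ran from 0.288 to 14.4 CPM, CAST/EiJ libraries from 0.0951 to 13.3 CPM and WSB/EiJ libraries from 0 to 18.7 CPM. These 3 strains and 129S1/SvImJ thus overlapped with C57BL/6J, whose highest library stood at 0.471 CPM. NOD/ShiLtJ libraries ran from 0.775 to 8.03 CPM and did not overlap with it. DBA/2J libraries had 5.35, 6.37, 6.88, 12.4 and 14.9 CPM, so that each lay above the whole C57BL/6J range.

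The order of Vldlr means was 129S1/SvImJ (11.5 ± 14.0 CPM, SD, n = 9), DBA/2J, A/J, WSB/EiJ, CAST/EiJ, NOD/ShiLtJ (4.49 ± 2.60 CPM, SD, n = 6) and C57BL/6J (0.0937 ± 0.188 CPM, SD, n = 6). Only the last step was larger than the spread of the neighbours. The contrast of C57BL/6J with the other strains was called (adjusted p = 0.0135, edgeR's quasi-likelihood test). Its fitted log2 value of -6.26 (SE 1.44) depends on the prior count, because the strain is near 0, and is no measure of size. Within cortex and within hippocampus the call was lost (adjusted p = 0.279 and 0.300, edgeR's quasi-likelihood test), and with astrocyte, pericyte and neuronal marker means as covariates it was lost as well (adjusted p = 0.0868). Within male libraries it was kept (adjusted p = 0.0312). Neuronal markers had a median sum of 161 CPM in C57BL/6J (93.0 to 282 CPM), against 210 CPM over all libraries. Their medians were lower in A/J (94.7 CPM) and CAST/EiJ (151 CPM), whose Vldlr means were 7.66 and 5.66 CPM. As mean log2(CPM + 1), the scale of the covariates, neuronal markers stood at 3.36 in C57BL/6J, 3.35 in A/J and 3.97 in CAST/EiJ. On that scale CAST/EiJ thus lay above C57BL/6J, and A/J lay level with it. Why the call was lost with the marker means was not tested.

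Lrp1, the scavenging receptor, was highest in WSB/EiJ and lowest in CAST/EiJ. WSB/EiJ libraries ran from 308 to 906 CPM, with a mean of 588 ± 222 CPM (SD, n = 6). CAST/EiJ libraries ran from 171 to 417 CPM, with a mean of 234 ± 93.0 CPM (SD, n = 6). The ranges of these strains overlapped, because the lowest WSB/EiJ library, male hippocampus titled low, lay at 308 CPM and the highest CAST/EiJ library, male cortex titled low, lay at 417 CPM.

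The other strains lay between them, from A/J (434 ± 189 CPM, SD, n = 5) through NOD/ShiLtJ, C57BL/6J and DBA/2J to 129S1/SvImJ (303 ± 114 CPM, SD, n = 9). No neighbours in that order differed beyond their spread. Against the mean of the other strains, WSB/EiJ was higher by 0.76 (log2, SE 0.21, adjusted p = 0.0290, edgeR's quasi-likelihood test), where the median over all genes was -0.72. CAST/EiJ stood at -0.79 (SE 0.24, adjusted p = 0.0784, edgeR's quasi-likelihood test) and was not called.

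The WSB/EiJ call of Lrp1 rested on small margins. It was lost with DESeq2's size factors (adjusted p = 0.0529), within cortex (0.318), within hippocampus (0.223), within male libraries (0.372), and without the 1 library A/J replicate 1 (0.0649) or DBA/2J replicate 1 (0.0556), all by edgeR's quasi-likelihood test. The pericyte markers also differed between WSB/EiJ and CAST/EiJ. Their summed level was 5242 to 9756 CPM in WSB/EiJ and 2161 to 3108 CPM in CAST/EiJ, with 6 of 10 markers called among strains. NOD/ShiLtJ, where Lrp1 was not called, had 5584 to 8751 CPM of these markers. Within WSB/EiJ, the library with the highest pericyte sum (9756 CPM) had the lowest Lrp1 level (308 CPM). As mean log2(CPM + 1), the scale of the covariates, pericyte markers were lowest in that same library, at 7.18. They were highest, at 8.35, in the library with the highest Lrp1 level (906 CPM), so the sum and the mean differed in order. A link between these markers and Lrp1 within strains was not tested. Astrocyte markers summed to 2874 to 4841 CPM in WSB/EiJ and 1480 to 6709 CPM in CAST/EiJ. With astrocyte, pericyte and neuronal marker means as covariates the Lrp1 value for WSB/EiJ was 0.65 (adjusted p = 0.182, edgeR's quasi-likelihood test).

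Lrp10, Scarb1 and Sorl1 were called in no strain. Strain means of Lrp10, the Golgi and endosome receptor, went from 63.4 ± 46.6 CPM in 129S1/SvImJ (SD, n = 9) to 128 ± 58.8 CPM in WSB/EiJ (SD, n = 6). Those of Scarb1, the receptor of high-density lipoprotein, went from 127 ± 30.2 CPM in WSB/EiJ (SD, n = 6) to 184 ± 43.5 CPM in CAST/EiJ (SD, n = 6). In neither gene did any neighbours in the order differ beyond their spread. Sorl1 means went from 21.5 ± 13.4 CPM in C57BL/6J (SD, n = 6) to 50.6 ± 30.3 CPM in WSB/EiJ (SD, n = 6), and only the step from NOD/ShiLtJ (35.3 ± 12.1 CPM, SD, n = 6) to C57BL/6J exceeded the larger SD.

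**Figure D2:**
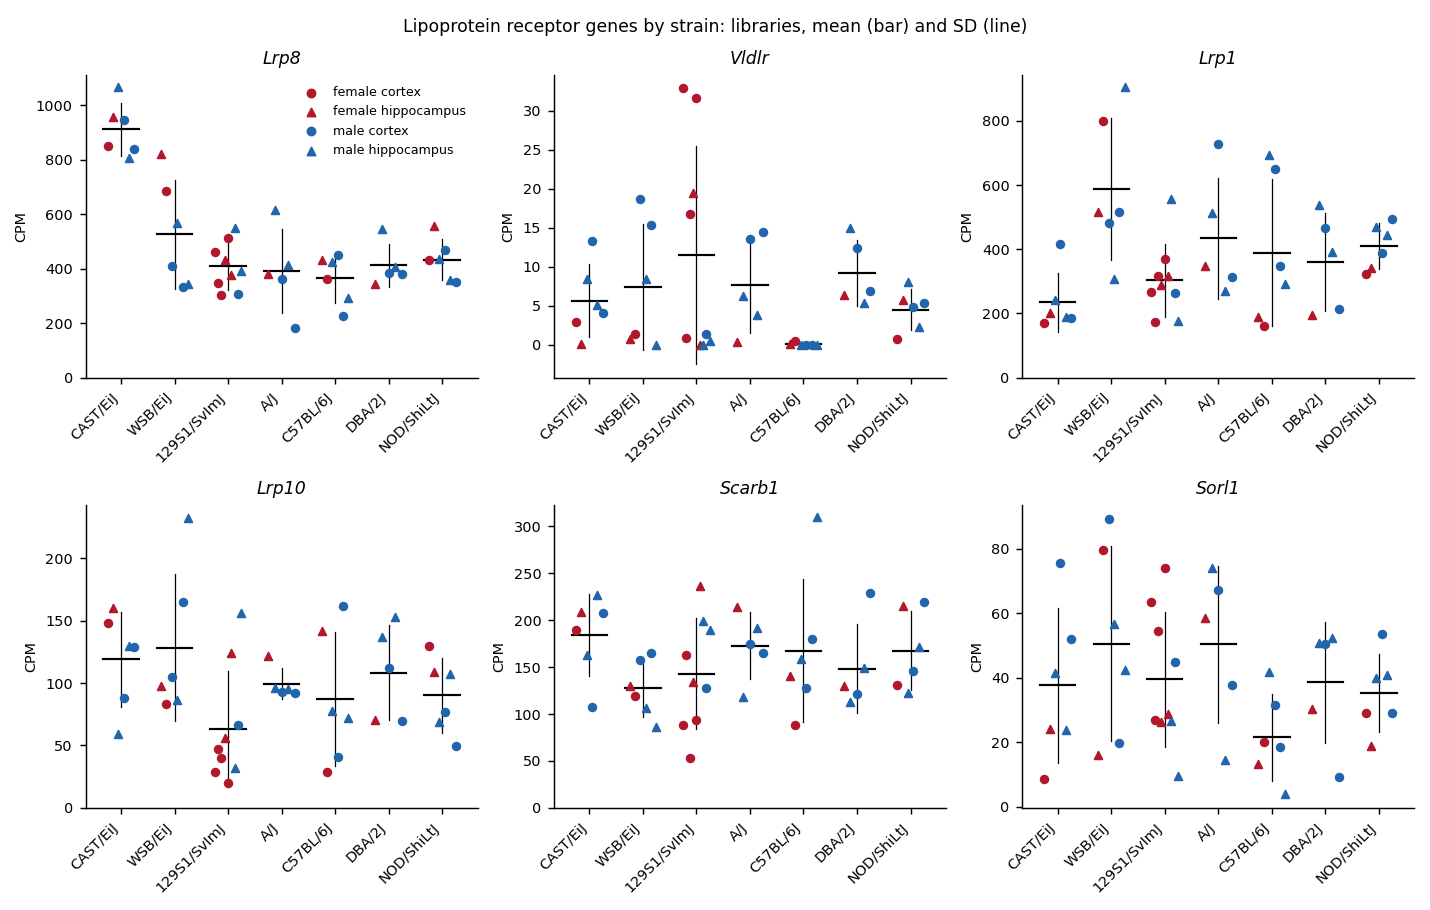
CPM of the 6 members in each of 43 libraries by strain, coloured by sex and shaped by region, with the strain mean (bar) and SD (line). Lrp8 lies at 806 CPM and above in CAST/EiJ, Vldlr lies at 0.471 CPM and below in C57BL/6J, and Lrp1 means run from 234 CPM in CAST/EiJ to 588 CPM in WSB/EiJ.

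Genes around these receptors were read from lists chosen with earlier results of these data known. Of 11 other genes of the receptor family to which Lrp8 and Lrp1 belong, 0 were called among strains by edgeR's quasi-likelihood test, with 1 at an unadjusted p under 0.05. Of 23 tested chaperones, adaptors and regulators 0 were called and 4 had an unadjusted p under 0.05. Over all 29120 genes, 781 were called among strains and 3107 had an unadjusted p under 0.05. Of 12 tested lipoprotein and scavenger receptors 2 were called, Stab2 and Gpihbp1. Of 15 tested ligands and lipoprotein enzymes 6 were called, namely Apoe, App, Clu, Lpl, Plat and Selenop. The lists were given no test of their own.

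Selenop, the selenium carrier that Lrp8 binds, and Plat, the tissue plasminogen activator that Lrp1 clears, were highest in the same strain as Lrp8. Selenop had 3200 ± 629 CPM in CAST/EiJ (SD, n = 6, 2492 to 3913), above every library of the other strains, whose highest stood at 1899 CPM. Its contrast for CAST/EiJ was 1.47 (log2, SE 0.11, adjusted p = 4.12e-17, edgeR's quasi-likelihood test). Plat had 314 ± 71.2 CPM in CAST/EiJ (SD, n = 6, 227 to 401), also above every other library, the highest of which stood at 222 CPM. Its contrast was 1.53 (log2, SE 0.20, adjusted p = 2.85e-08, edgeR's quasi-likelihood test).

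Apoe, the apolipoprotein that Lrp8, Vldlr and Lrp1 bind, was lowest in CAST/EiJ, at 851 ± 362 CPM (SD, n = 6). The contrast for that strain was -1.07 (log2, SE 0.28, adjusted p = 0.0265, edgeR's quasi-likelihood test). It was highest in 129S1/SvImJ at 2976 ± 1688 CPM (SD, n = 9), with a contrast of 1.04 (log2, SE 0.21, adjusted p = 0.00156, edgeR's quasi-likelihood test). That strain gave 6 female and 3 male libraries, and the contrast had no term for sex.

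Lpl, the lipoprotein lipase, was at 0 CPM in 6 of 6 C57BL/6J libraries, the strain in which Vldlr was also near 0, and its contrast for that strain was called (adjusted p = 0.00989, edgeR's quasi-likelihood test). Each other strain also held a library at 0, and the highest library, of WSB/EiJ, stood at 33.7 CPM. Stab2, a hyaluronan scavenger receptor, had 150 to 237 CPM in the 5 DBA/2J libraries and at most 10.4 CPM in any other library. Gpihbp1, which anchors lipoprotein lipase to endothelium, was also called for DBA/2J (adjusted p = 0.00134, edgeR's quasi-likelihood test). However, its libraries there ran from 0 to 46.8 CPM, and its mean in any other strain was at most 1.47 CPM. Strain means of Lpl were at most 8.48 CPM. In simulated counts the share of false calls was above the nominal one for genes at low counts, which limits the Lpl and Gpihbp1 calls.

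The study also set wild-derived against long-inbred strains. By edgeR's quasi-likelihood test 1 of 6 members was called, where 0.749% of all genes were called. This was Lrp8, with 332 to 1068 CPM (median 814 CPM) in the 12 wild-derived libraries and 182 to 614 CPM (median 391 CPM) in the 31 long-inbred libraries, so the groups overlapped. The difference was 0.84 (log2, SE 0.14, adjusted p = 4.06e-05, edgeR's quasi-likelihood test), a fold of 1.79, where the median over all genes was -0.38. The study named Lrp8 in this comparison from these same libraries, so the call is not independent evidence.

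The origin difference of Lrp8 rested on CAST/EiJ libraries. Without CAST/EiJ it was 0.39 (adjusted p = 0.456, edgeR's quasi-likelihood test), and without WSB/EiJ it was 1.16 (adjusted p = 5.50e-08). Within hippocampus it was 0.80 (adjusted p = 0.0303), and within cortex it was 0.86 and lost its call (adjusted p = 0.0803, edgeR's quasi-likelihood test). WSB/EiJ alone against the other strains stood at 0.19 (SE 0.17, adjusted p = 0.849, edgeR's quasi-likelihood test).

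The other 5 members were not called by origin. Lrp10 stood at 0.52 (log2, SE 0.22, adjusted p = 0.526, edgeR's quasi-likelihood test), and the other 4 lay between -0.09 and 0.26. Among the listed genes Plat rose by 1.07 (log2, SE 0.18, adjusted p = 9.02e-05, edgeR's quasi-likelihood test) and Selenop by 0.75 (log2, SE 0.16, adjusted p = 0.00474). Of the wild-derived strains only CAST/EiJ was high in both. WSB/EiJ had 129 ± 56.0 CPM of Plat (SD, n = 6), beside 125 ± 38.0 CPM in C57BL/6J (SD, n = 6). It had 943 ± 120 CPM of Selenop (SD, n = 6), and its contrast with the other strains was -0.58 (log2, SE 0.13, adjusted p = 0.00614, edgeR's quasi-likelihood test). Stab2 was lower in wild-derived strains (adjusted p = 0.0176, edgeR's quasi-likelihood test), and among the strain contrasts it was called only for DBA/2J. Of all genes called by origin, 67.9% were higher in wild-derived strains, against 42.5% by DESeq2, for which the median over all genes was 0.00. The Lrp8 value by DESeq2 was 0.77.

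Between the sexes, 0 of 6 members were called by edgeR's quasi-likelihood test, where 2.85% of all genes were called. At an unadjusted p under 0.05 there was 1 member, Lrp1, where 3818 of all 29120 genes passed, and DESeq2 called 1 member. Lrp1 ran from 162 to 801 CPM (median 302 CPM) in 16 female libraries and from 176 to 906 CPM (median 417 CPM) in 27 male libraries, so the groups overlapped widely. Its difference was -0.45 (log2 female minus male, SE 0.18, adjusted p = 0.200, edgeR's quasi-likelihood test).

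The Lrp1 sex difference passed the threshold under other settings. It was -0.61 by DESeq2 (adjusted p = 0.0328), -0.61 with DESeq2's size factors in edgeR (adjusted p = 0.0441) and -0.63 without WSB/EiJ (adjusted p = 0.0259, edgeR's quasi-likelihood test). Size factors also moved the median over all genes from -0.12 to -0.24 and the share of called genes that were higher in female mice from 89.8% to 73.5%, and by DESeq2 that share was 60.7%. Astrocyte markers moved with sex. Their median difference was -0.50, with 2 of 10 called, both lower in female mice, and they summed to 1099 to 4750 CPM in female and 1480 to 19671 CPM in male libraries. With astrocyte, pericyte and neuronal marker means as covariates the Lrp1 difference was -0.06 and was not called by edgeR's quasi-likelihood test, while 534 of 22146 genes were. In libraries titled high alone it was -0.22 (adjusted p = 0.616, edgeR's quasi-likelihood test).

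Lrp8 had 515 ± 203 CPM in female (SD, n = 16) and 476 ± 213 CPM in male libraries (SD, n = 27), a log2 difference of 0.12 (SE 0.16) that was not called. In 12 sets of libraries matched for strain and region and titled high, Lrp8 was higher in female mice in 10, by a median of 0.28 on the log2 scale. Female 129S1/SvImJ libraries with a number in the title were left out of these sets. Those titled high had 303 and 513 CPM in cortex, beside 307 CPM in the male library. In hippocampus the left-out library had 378 CPM, beside 391 CPM in the male one. Among listed genes, Apoe rose by 0.88 (log2, SE 0.20, adjusted p = 0.00243) and App by 0.52 (log2, SE 0.09, adjusted p = 4.26e-05) in female mice, by edgeR's quasi-likelihood test. Of the 16 female libraries 6 came from 129S1/SvImJ, where Apoe was highest, and the test had no term for strain. The App mean was also highest there, at 2752 ± 688 CPM (SD, n = 9), close to C57BL/6J at 2732 ± 284 CPM (SD, n = 6). Sex and strain were thus not separated for Apoe or App. Clu (clusterin, a lipid carrier) stood at -1.12 (log2, SE 0.21, adjusted p = 2.31e-04, edgeR's quasi-likelihood test), lower in female mice. So did Lrp4, the agrin receptor of this family, at -0.76 (log2, SE 0.22, adjusted p = 0.0332, edgeR's quasi-likelihood test). Of the 16 female libraries 15 were titled high, and the test had no term for the tag. Clu had a mean of 517 CPM in male libraries titled low, 254 CPM in male libraries titled high and 176 CPM in female libraries. For Lrp4 these means were 71.7, 59.1 and 38.5 CPM. Sex and tag were thus not separated for either gene.

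Between regions, 0 of 6 members were called by edgeR's quasi-likelihood test, where 0.0755% of all genes were called. At an unadjusted p under 0.05 there were 0 members, where 1631 of all 29120 genes passed. DESeq2 also called 0. Differences (hippocampus minus cortex, log2) ran from -1.11 for Vldlr (SE 0.65) to 0.36 for Lrp10 (SE 0.21). Lrp8 had 523 ± 211 CPM in hippocampus (SD, n = 22) and 456 ± 205 CPM in cortex (SD, n = 21). In 19 sets matched for strain, sex, tag and any number in the title, Lrp8 was higher in hippocampus in 15, by a median of 0.26. Of 61 listed genes tested 0 were called by edgeR's quasi-likelihood test and 4 had an unadjusted p under 0.05.

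**Figure D3:**
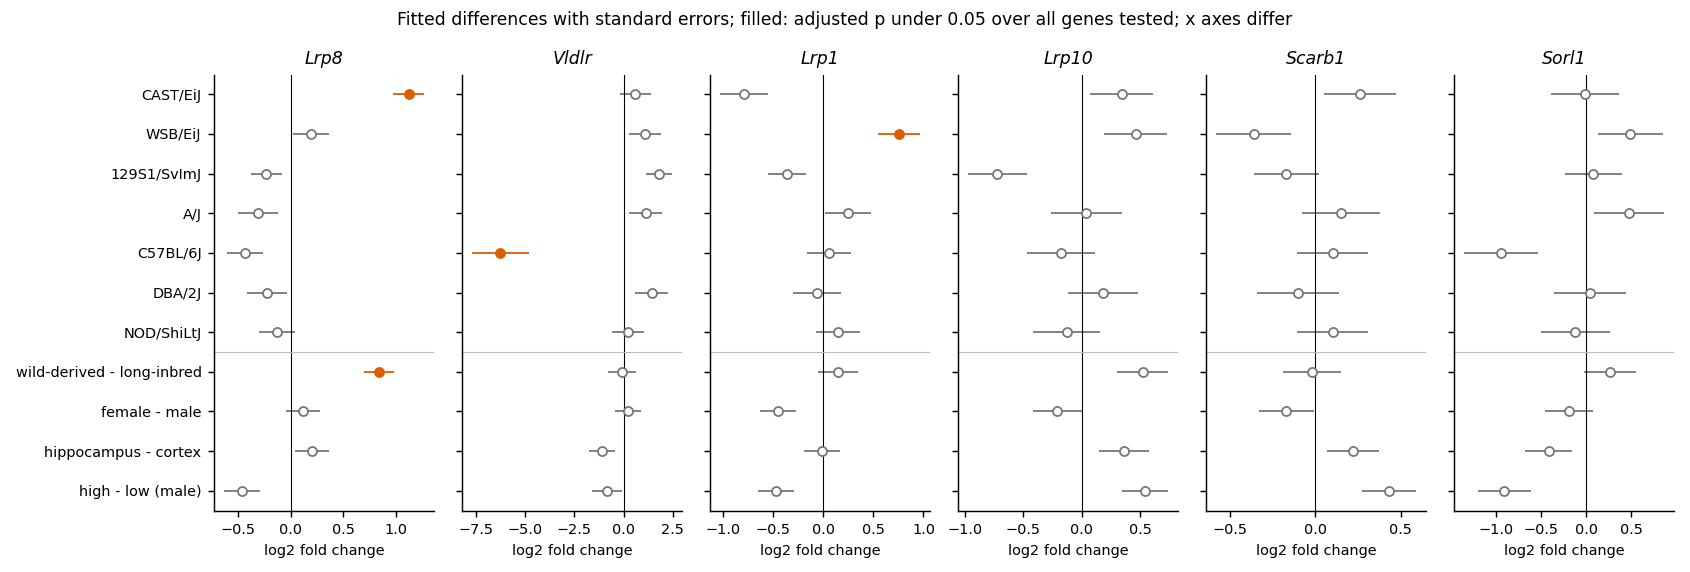
Fitted log2 fold changes of the 6 members with standard errors, for each strain against the mean of the others (above the line) and for origin, sex, region and title tag (below it), with filled points where the adjusted p over all genes was under 0.05. The filled points are Lrp8 in CAST/EiJ (1.12) and by origin (0.84), Lrp1 in WSB/EiJ (0.76) and Vldlr in C57BL/6J (-6.26).

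The title tag was compared within the 27 male libraries, 14 titled high and 13 titled low. By edgeR's quasi-likelihood test 0 of 6 members were called, where 1.06% of all genes were called. At an unadjusted p under 0.05 there were 5 members, where 2233 of all 27529 genes passed, and DESeq2 called 2 members (Scarb1 and Sorl1). Of all genes called, 27.6% were higher in libraries titled high, against 38.4% by DESeq2. The receptors did not move one way. Lrp8, Lrp1 and Sorl1 were at lower levels in libraries titled high, and Lrp10 and Scarb1 at higher levels.

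Lrp8 had 182 to 840 CPM (median 353 CPM) in libraries titled high and 361 to 1068 CPM (median 467 CPM) in those titled low. Set beside the library of the same strain and region, the one titled high was lower in 13 of 13 cases, by a median of 0.43 on the log2 scale (from 0.01 to 0.99). The groups as a whole overlapped, and the test without strain gave -0.46 (SE 0.17, adjusted p = 0.283, edgeR's quasi-likelihood test). With strain and region as covariates the value was -0.47 and was called (adjusted p = 0.00461, edgeR's quasi-likelihood test over 24494 genes).

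Sorl1, the sorting receptor, ran from 3.95 to 52.4 CPM (median 26.5 CPM) in libraries titled high and from 26.5 to 89.3 CPM (median 50.7 CPM) in those titled low. It was lower in the library titled high in 11 of 13 cases. Its difference was -0.91 (log2, SE 0.29, adjusted p = 0.132, edgeR's quasi-likelihood test). Scarb1 ran the other way, with medians of 185 CPM in libraries titled high and 128 CPM in those titled low, and was higher in the former in 10 of 13 cases (0.43, SE 0.16, adjusted p = 0.259, edgeR's quasi-likelihood test).

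Lrp1 was lower in the library titled high in 10 of 13 cases, with medians of 303 CPM and 483 CPM (-0.47, SE 0.18, adjusted p = 0.332, edgeR's quasi-likelihood test). Without WSB/EiJ it was -0.80 (adjusted p = 0.00265). Lrp10 was higher in 8 of 13 cases (0.54, SE 0.20, adjusted p = 0.315, edgeR's quasi-likelihood test). Vldlr was lower in 8 cases, higher in 3 and at 0 in both libraries in the others.

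Markers of other cells moved with the tag in male mice, and not all lists moved the same way. Of 10 astrocyte markers 10 had differences below 0 (median -0.81, 3 called), as did 8 of 8 neuronal markers (median -1.01, 2 called) and 6 of 6 oligodendrocyte markers (median -1.06, 1 called). Of 10 endothelial markers 9 had differences above 0 (median 0.24, 3 called), where the median over all genes was 0.04. So did 8 of 10 pericyte markers (median 0.15, with 1 called, which was lower) and 4 of 4 choroid plexus markers (median 0.82). For fibroblast markers it was 4 of 5 (median 0.07), for smooth muscle 3 of 6 (median 0.29) and for microglial 3 of 9 (median -0.56). Astrocyte markers summed to 1480 to 7274 CPM in libraries titled high and 3163 to 19671 CPM in those titled low. Neuronal markers summed to 50.1 to 534 CPM and 210 to 664 CPM, in the same order. Pericyte sums had a median of 3905 CPM (2330 to 9013) in libraries titled high and 6863 CPM (2799 to 9756) in those titled low. By their median, these sums were lower in libraries titled high, while most single pericyte markers were higher. With the astrocyte, pericyte and neuronal marker means as covariates, the differences were -0.32 for Lrp8, -0.27 for Lrp1, 0.06 for Scarb1, 0.29 for Sorl1, 0.94 for Lrp10 and 1.67 for Vldlr, and edgeR's quasi-likelihood test called no member. That fit called 0 of 21455 genes, so it sets the members apart from no others. Among the listed genes only Clu was called by tag, at -1.01 (log2, SE 0.20, adjusted p = 0.00251, edgeR's quasi-likelihood test).

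**Figure D4:**
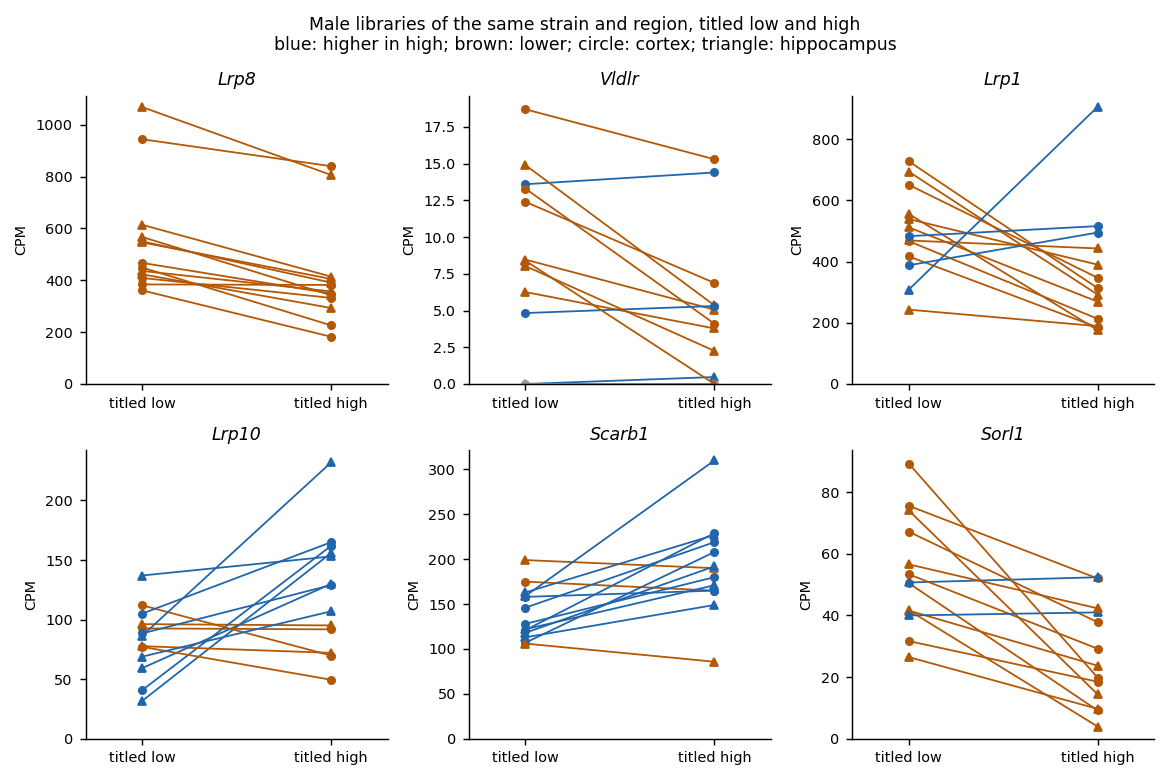
CPM of the 6 members in the 13 sets of male libraries that share strain and region, with a line from the library titled low to the one titled high (blue where higher, brown where lower, grey where both are at 0). Lrp8 is lower in the library titled high in 13 of 13 sets and Sorl1 in 11, and Scarb1 is higher in 10.

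Differences between effects were tested as interactions, and 0 of 18 member tests were called by edgeR's quasi-likelihood test, with 1 at an unadjusted p under 0.05. Of 29120 genes, 0 were called for origin by region, 6 for sex by origin and 1 for sex by region, so 0 calls among the members is near the background. At an unadjusted p under 0.05 there were 675, 1146 and 1077 genes, in that order. The member at an unadjusted p under 0.05 was Vldlr for sex by origin, at -3.72 (log2, SE 1.69), with low counts in many libraries. The origin effect on Lrp8 differed between regions by -0.07 (log2, SE 0.28), and its sex effect differed between origins by 0.27 (log2, SE 0.29). Differences within these errors were not detectable with these libraries.

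The members differed in the genes whose pattern over 43 libraries was most like theirs, read as Pearson's r of log2(CPM + 1) among genes with a mean of at least 10 CPM. For Lrp1 they included Ttyh1 (r = 0.77) and Ntrk2 (0.77), genes known for high levels in astrocytes. For Scarb1 they were Cdh5 (r = 0.73), the endothelial cadherin, Arhgdia (0.70) and Aaas (0.69). For Sorl1 they were Srgap3 (r = 0.72), Shank1 (0.69), a postsynaptic scaffold, and Pcdh10 (0.68).

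For Lrp8 the closest were the predicted genes Gm13341 (r = 0.75), Gm4076 (0.74) and Gm13339 (0.74). For Lrp10 they were Bhlhe40 (r = 0.69), Sgk1 (0.67) and Uba1 (0.66), and for Vldlr they were Trim9 (r = 0.67), AI593442 (0.66) and Zfp365 (0.66). Among the members themselves r ran from -0.52 (Scarb1 and Sorl1) to 0.47 (Lrp1 and Sorl1), and Lrp8 had r between -0.09 and 0.12 with each of the others. The libraries share strain, sex, tag and depth, so these values describe the set and carry no test.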

How the data were processed

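The authors aligned single-end reads of 125 bp to mm10 with HISAT2 2.1.0 and counted them per gene with featureCounts (Subread 1.4.4), and deposited raw counts without normalization. Libraries came from an rRNA-depleted stranded kit. Counts were scaled here with TMM from column totals and are given as CPM. Genes that reached 0.5 CPM in 1 or more libraries entered the tests, made with edgeR 4.0.16 in R 4.3.3 (quasi-likelihood test, two-sided, bias-adjusted deviances, trended dispersion, no covariates), with Benjamini-Hochberg adjustment over all genes at 0.05. SE is the absolute log2 fold change over the root of F. DESeq2 1.42.0 was an alternative. Alternatives, subsets and left-out libraries are given at the end. The programs were tested on simulated counts, where the share of false calls was above the nominal one for genes at low counts.

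In fits with covariates, genes fitted at over 5 times their highest count were dropped (1017 to 6974 genes), because edgeR's fit ended in an error with them. Genes named were the 6 members, the called genes of the lists with the smallest p, and the 3 genes most like each member, and some genes under this rule are not reported here. The members and lists were chosen with earlier results of these data known. Positions follow GENCODE M21. Reads, and Scarb1's upstream sequence, were not analysed here.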

Additional observations from a re-analysis of the deposited data

Results flagged for a closer look

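In 3 of 42 groups of a member and a strain, 1 library lay far from the others by Dixon's criterion, which chance alone meets in about 1 of 20 groups. Vldlr in C57BL/6J reached 0.471 CPM in the female cortex library, against 0 to 0.0911 CPM in the other 5, but this value rests on 2 counts. Lrp1 in CAST/EiJ reached 417 CPM in the male cortex library titled low, against 171 to 243 CPM in the other 5. Lrp10 in A/J reached 122 CPM in the female hippocampus library, the only female library of that strain, against 91.8 to 96.2 CPM in the other 4.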

How the results depend on the processing

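Lrp8 in CAST/EiJ kept its direction and its call in each alternative and left-out library that was run. Of 1422 values of single members under alternatives, 1381 kept their side of the threshold, 21 lost a call and 20 gained one, and no called value changed sign. Among strains, the 2 members called became 1 with filterByExpr and with marker means as covariates, 0 within cortex and 0 within hippocampus, and 1 to 2 with an A/J or DBA/2J library left out. The 3 calls of single strains became 5 with edgeR's default deviances, 1 within cortex, 1 within hippocampus, 1 with marker means as covariates and 2 to 3 with a library left out. The 1 call by origin became 0 without CAST/EiJ and 0 within cortex. By sex, 0 became 1 with DESeq2's size factors, with default deviances, without WSB/EiJ and with DESeq2. By title tag, 0 became 5 with default deviances, 1 without WSB/EiJ, 1 with strain and region as covariates and 2 with DESeq2. The cause was not tested, except that subsets hold fewer libraries and covariate fits fewer genes. The tag alternatives without each strain and with marker means, and the Vldlr ratio without each library, were chosen after seeing the data.

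Default deviances called 13525 genes among strains, 6712 by origin, 10473 by sex, 8023 by region and 8327 by tag, against 781, 218, 830, 22 and 293. DESeq2 called 1335 among strains, 395 by origin, 1031 by sex, 61 by region and 635 by tag. With the rRNA-like share as a covariate 59 genes were called by sex. No paired analysis was possible because only titles of 129S1/SvImJ female libraries carry numbers, and the groups compared share at most 1 of them. Sets matched by strain and region are matched by label and not by animal. Low counts limit Vldlr most, with 3 counts or fewer in 13 of 43 libraries, 6 of them from C57BL/6J. They were not confined to shallow libraries, as 129S1/SvImJ replicate 6 had 0 Vldlr counts in a total of 38277327.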
